A study of Mus musculus with 10 samples.

Results

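The difference between mice lacking the kinase RSK2 (KO) and wild-type mice (WT) that was held in common by 2 stages of the estrous cycle was measured in luminal cells of the mouse mammary gland. All 10 libraries of the study entered: 5 KO and 5 WT, compared within estrus and within diestrus, and the 2 stage differences were then averaged with equal weight. Of 15180 genes tested, 101 were called in the averaged difference. Of these 101, 73 also had every KO library on the same side of every WT library of the same stage, at estrus and at diestrus. These 73 genes, 29 higher and 44 lower in KO, are called the shared genes here.

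The mice were 12 weeks old, of strain C57BL/6J, with genotype RSK2(+/+) in WT and RSK2(-/-) in KO. There were 3 WT and 3 KO libraries from estrus, and 2 WT and 2 KO libraries from diestrus. From the 4th mammary glands, 50000 cells high for EpCAM, low for CD49f, positive for Sca-1 and negative for CD49b were sorted, and total RNA with a RIN of 8 was sequenced. Because WT also appears in the titles of KO libraries, genotype was taken from its own entry in the labels. How the knockout was made is not given in the sources used here. The labels do not say whether a library is 1 mouse or a pool, so each p-value measures only the spread between libraries. The values are normalized read counts per gene, which are not divided by gene length, and they summed to between 14108057 and 15307238 per library.

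RSK2, encoded by Rps6ka3, is a serine/threonine kinase that is switched on by ERK1/2 and by PDK1, at the end of the pathway that carries growth factor signals from RAS through RAF and MEK. It phosphorylates transcription factors, translation regulators and other proteins in the nucleus and cytoplasm. In the mammary gland, luminal cells that carry the receptors for estrogen, progesterone and prolactin read the cycling ovarian hormones and signal to their neighbours, in part through ligands of the EGF receptor, which feeds the same ERK pathway.

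Rps6ka3 transcripts were not lower in KO. Rps6ka3 had 136, 128 and 137 normalized counts in the WT estrus libraries and 158, 156 and 164 in the KO estrus libraries. It had 165 and 139 counts in WT diestrus and 156 and 165 in KO diestrus. KO estrus thus lay above WT estrus without overlap, and the diestrus groups overlapped. The averaged log2 difference was 0.17 ± 0.13 (SE, limma adjusted p = 0.561), and an exact permutation of genotype within stages gave a two-sided p of 0.05, where 0.0167 is the smallest possible. The count covers the whole gene on chromosome X, so it checks no deleted part and does not check the genotype labels. The sorted cells carried the transcripts of hormone-sensing luminal cells in every library: Prlr, the prolactin receptor, ranged from 26088 to 48303 counts, Esr1, the estrogen receptor, from 1468 to 3334, and Pgr, the progesterone receptor, from 748 to 1688.

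The shared genes were few beside the genes called at estrus alone, but more numerous than those called at diestrus alone. In the averaged difference limma called 101 of 15180 genes at an adjusted p under 0.05 (0.665%), 38 higher (0.25%) and 63 lower (0.415%). In the same limma contrast 2235 of the 15180 had an unadjusted p under 0.05, the background for the gene list counts given below. The 73 shared genes are 0.481% of the genes tested. At estrus alone 637 genes were called (4.2%), and at diestrus alone 6 (0.0395%). The groups did not overlap for 3948 genes at estrus (26%) and for 6537 at diestrus (43.1%), where only 2 libraries stand against 2. They were apart in the same direction at both stages for 817 genes (5.38%), 368 higher (2.42%) and 449 lower (2.96%). They were apart in opposite directions for 858 genes (5.65%). In the values as deposited, genes apart in the same direction were thus no more numerous than genes apart in opposite directions. This order depended on the scaling: the counts were 862 and 847 after scaling to equal totals, 849 and 911 after quantile normalization, 846 and 881 after trimmed mean scaling, and 878 and 681 with the dependence on transcript length and GC taken out. The 817 genes are 20.7% of those apart at estrus and 12.5% of those apart at diestrus. Of all tested genes 50.67% had the same sign at both stages, and across genes the estrus and diestrus differences had a Pearson r of 0.145 and a Spearman rho of 0.05, a description over genes that share libraries and are not independent.

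**Figure D1:**
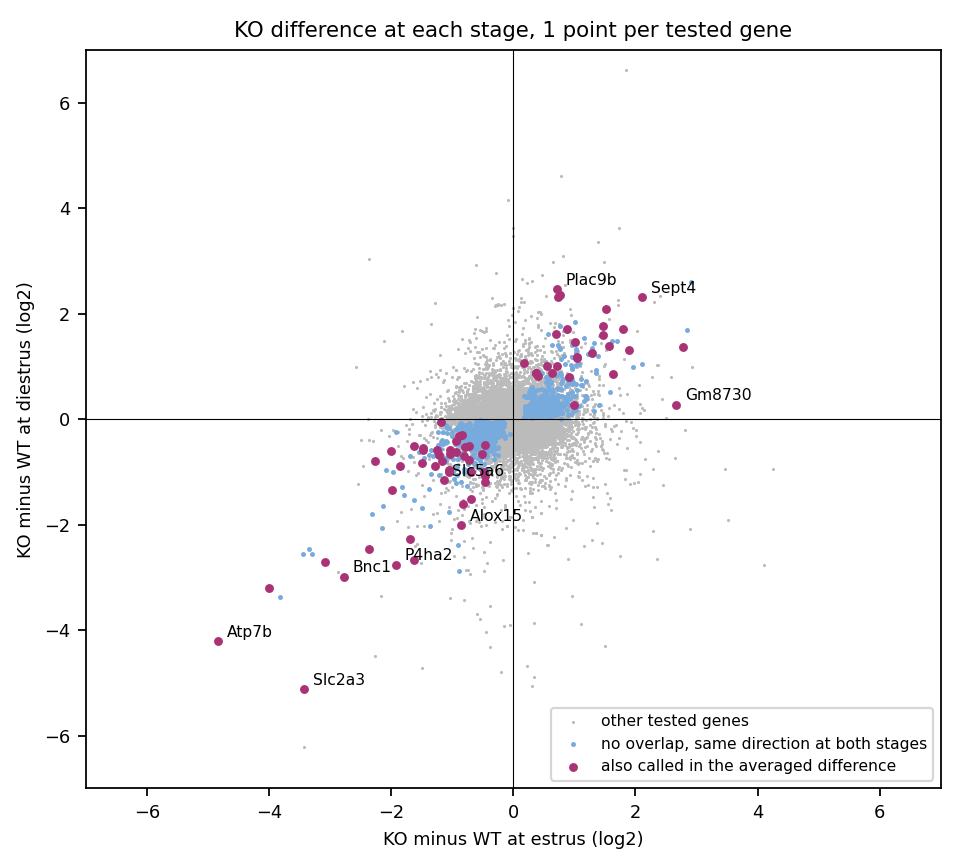
Log2 difference between KO and WT at estrus (horizontal) and at diestrus (vertical) for each of the 15180 tested genes. Blue points are genes whose libraries did not overlap in the same direction at both stages, purple points are the 73 that were also called in the averaged difference, and the grey points of the other genes fill all 4 quadrants.

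The difference of the KO effect between the stages was called for 0 genes by limma, with 2150 genes at an unadjusted p under 0.05 and a lowest adjusted p of 0.0812. Among the 73 shared genes 22 had an unadjusted p under 0.05 for this difference. The size of the effect was larger at diestrus than at estrus in 37 of the 73, in 20 of the 29 higher and in 17 of the 44 lower genes. At estrus alone 49 of the 73 were called, and at diestrus alone 4: Ank, Plac9a, Plac9b and Gm9780. Over all 10 libraries, with stage ignored, every KO library lay above every WT library for 22 of the 29 higher genes and below it for 30 of the 44 lower ones. The same held for 160 and 174 of all tested genes. All of these are among the 368 higher and 449 lower genes apart in the same direction at both stages. The choice of the shared genes thus favours them. The calls lay close to the threshold: adjusted p ran from 0.00954 to 0.0487 and was at least 0.04 for 37 of the 73. Cmtm3 and Adarb1 were just inside, each with an adjusted p of 0.0487, and Mettl24 and Myzap just outside, with 0.05002 and 0.0577. The direction at both stages was part of how the genes were chosen and is therefore no sign of their stability.

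**Figure D2:**
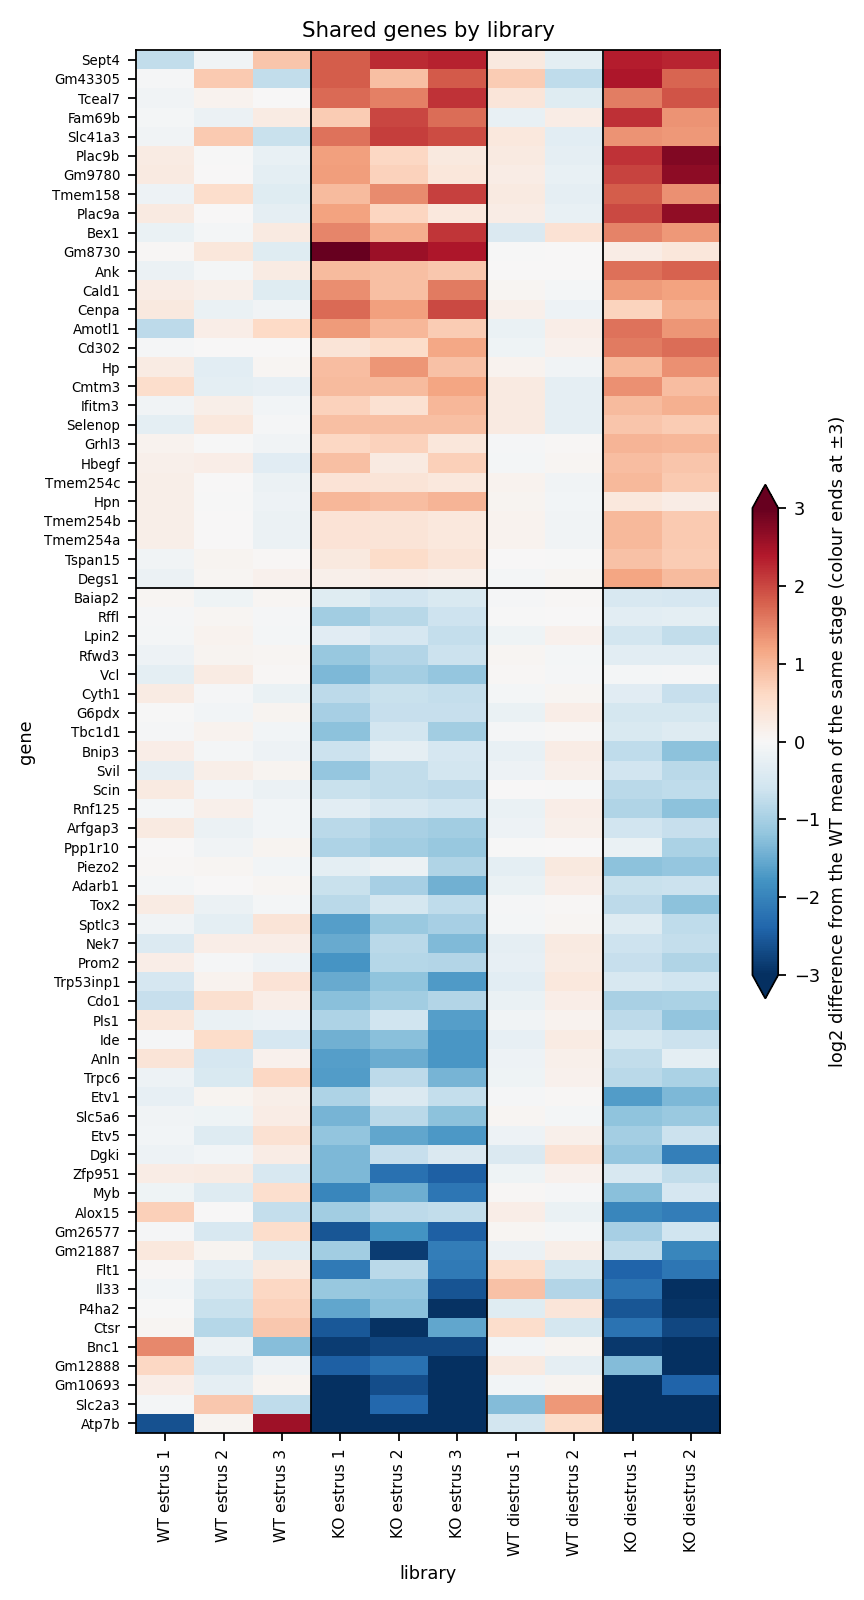
Log2 difference of each library from the WT mean of its stage, for the shared genes (rows, ordered by the averaged difference, 1 not drawn) and the 10 libraries (columns, with lines between groups). The higher genes stand above the horizontal line and the 44 lower genes below it, and the WT columns of Atp7b, Slc2a3 and Bnc1 show the spread within WT.

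Several membrane transporters were among the shared genes. Slc5a6, the sodium-dependent carrier of biotin and pantothenate (chromosome 5, 31036036 to 31048924, minus strand, GRCm38), was lower in KO at both stages by nearly the same amount. It had 5146, 5055 and 6373 counts in WT estrus and 2073, 3150 and 2357 in KO estrus. In diestrus it had 5086 and 4650 counts in WT and 2098 and 2252 in KO. The highest KO library lay well below the lowest WT library. The log2 difference averaged -1.15 ± 0.13 (SE, limma adjusted p = 0.00954), with -1.14 at estrus and -1.16 at diestrus. Slc5a6 overlaps Atraid on the opposite strand, and Atraid did not follow it (averaged log2 0.10 ± 0.11, adjusted p = 0.686).

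Slc2a3, the glucose transporter GLUT3 (chromosome 6, 122727809 to 122801640, minus strand), fell to near 0. Its counts were 97, 177 and 59 in WT estrus, 6, 19 and 5 in KO estrus, 65 and 401 in WT diestrus, and 10 and 1 in KO diestrus. All KO libraries lay below all WT libraries, and the WT libraries differed among themselves. The averaged log2 difference was -4.27 ± 0.61 (adjusted p = 0.0172). On this scale, log2 of the value plus 1, a difference is understated where counts are low. Atp7b, a copper-transporting ATPase (chromosome 8, 21992785 to 22060305, minus strand), had 13, 89 and 493 counts in WT estrus against 0, 8 and 2 in KO estrus, and 75 and 161 in WT diestrus against 5 and 5 in KO diestrus. The spread within WT estrus was wide, and KO and WT did not overlap. The averaged log2 difference of Atp7b was -4.52 ± 0.85 (adjusted p = 0.0457). Trpc6, a receptor-operated cation channel, also fell (log2 -1.08 ± 0.21), as did Piezo2, a mechanically gated channel (-0.83 ± 0.16).

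Ank and Slc41a3 were the transporters that rose. Ank, a membrane protein that controls extracellular pyrophosphate (chromosome 15, 27466677 to 27594909, plus strand), had 43, 47 and 58 counts in WT estrus and 95, 93 and 86 in KO estrus, and 58 and 58 in WT diestrus against 184 and 201 in KO diestrus. Every KO library lay above every WT library, and the gap was wider at diestrus. The averaged log2 difference was 1.30 ± 0.16 (adjusted p = 0.0102), and Ank was called at each stage by itself. Otulin, which overlaps Ank on the opposite strand, did not change with it (log2 -0.07 ± 0.13). Slc41a3, a magnesium transporter, had 42, 79 and 28 counts in WT estrus, 143, 194 and 180 in KO estrus, 52 and 33 in WT diestrus and 107 and 103 in KO diestrus (log2 1.61 ± 0.27, adjusted p = 0.0318).

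Transcription factors of the ERK-induced ETS family were lower in KO. Etv5 (chromosome 16, 22381309 to 22439719, minus strand) had 215, 174 and 311 counts in WT estrus and 99, 76 and 68 in KO estrus, and 198 and 241 in WT diestrus against 108 and 140 in KO diestrus. All KO libraries lay below all WT libraries, and the averaged log2 difference was -1.16 ± 0.19 (adjusted p = 0.0318). Etv1 (chromosome 12, 38779380 to 38870484, plus strand) had 216, 271 and 290 counts in WT estrus against 134, 190 and 155 in KO estrus, and 196 and 209 in WT diestrus against 63 and 79 in KO diestrus. Its KO and WT libraries did not overlap either, and the gap was wider at diestrus (averaged log2 -1.10 ± 0.15, adjusted p = 0.0172). Etv4, the third member of this PEA3 subfamily, was called lower (-1.65 ± 0.30, adjusted p = 0.0437) but is not among the shared genes. At estrus its KO counts of 54, 80 and 33 overlapped the WT counts of 107, 76 and 150.

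No other gene of the ERK feedback and ETS target list was called. Of its 22 tested genes 3 were called lower (13.6%, against 0.415% of all genes), 6 had an unadjusted p under 0.05, and the median averaged log2 difference was 0.06 (-0.05 without WT diestrus 1) against -0.01 over all genes. Dusp6, an ERK phosphatase, ranged from 3178 to 4864 counts in KO estrus and from 3519 to 4183 in WT estrus (averaged log2 0.25 ± 0.15, adjusted p = 0.448). Spry4, an inhibitor of receptor signalling to ERK, had a log2 difference of -0.13 ± 0.21. Of the 26 immediate-early genes, 6 RSK and MSK kinases and 17 genes of the RAS to ERK cascade, limma called 0 in the averaged difference, with 4, 1 and 2 at an unadjusted p under 0.05. Fos, an immediate-early transcription factor, had an averaged log2 difference of 0.28 ± 0.18 (adjusted p = 0.49). Of 22 reported targets of RSK phosphorylation, Ets1 was called lower (4.55%, against 0.415% of all genes), with an estrus difference of -1.15, a diestrus difference of -0.15 and overlapping diestrus libraries. The 3 calls of the ETS list ran from 0 to 3 with 1 library left out.

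Myb, a transcription factor of hormone-sensing luminal cells (chromosome 10, 21124935 to 21160984, minus strand), was lower at both stages. Its counts were 372, 310 and 576 in WT estrus, 104, 147 and 90 in KO estrus, 516 and 486 in WT diestrus, and 208 and 350 in KO diestrus. KO and WT were apart within each stage, but 1 KO diestrus library with 350 counts lay above the lowest WT estrus library with 310. The averaged log2 difference was -1.37 ± 0.21 (adjusted p = 0.0215), with -1.85 at estrus and -0.89 at diestrus. Gm26577 lies on the opposite strand within Myb and had nearly the same pattern over libraries (r = 0.989). Whether the counting used strand is not given in the sources used here, so the pair is best read as 1 signal.

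Further shared genes encode DNA- or RNA-binding proteins and other nuclear factors. Bnc1, the zinc finger protein basonuclin 1 (chromosome 7, 81966672 to 81992292, minus strand), had 215, 70 and 32 counts in WT estrus, 10, 11 and 11 in KO estrus, 181 and 206 in WT diestrus, and 25 and 22 in KO diestrus. The highest KO value of 25 lay just below the lowest WT value of 32, and the averaged log2 difference was -2.88 ± 0.41 (adjusted p = 0.0172). The zinc finger gene Zfp951 (-1.30 ± 0.26), the HMG-box gene Tox2 (-0.85 ± 0.13), the RNA-editing enzyme Adarb1 (-0.84 ± 0.17) and the nuclear phosphatase subunit Ppp1r10 (-0.81 ± 0.14) also fell. Grhl3, a grainyhead factor of epithelial differentiation, rose (0.78 ± 0.14, adjusted p = 0.0432).

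**Figure D3:**
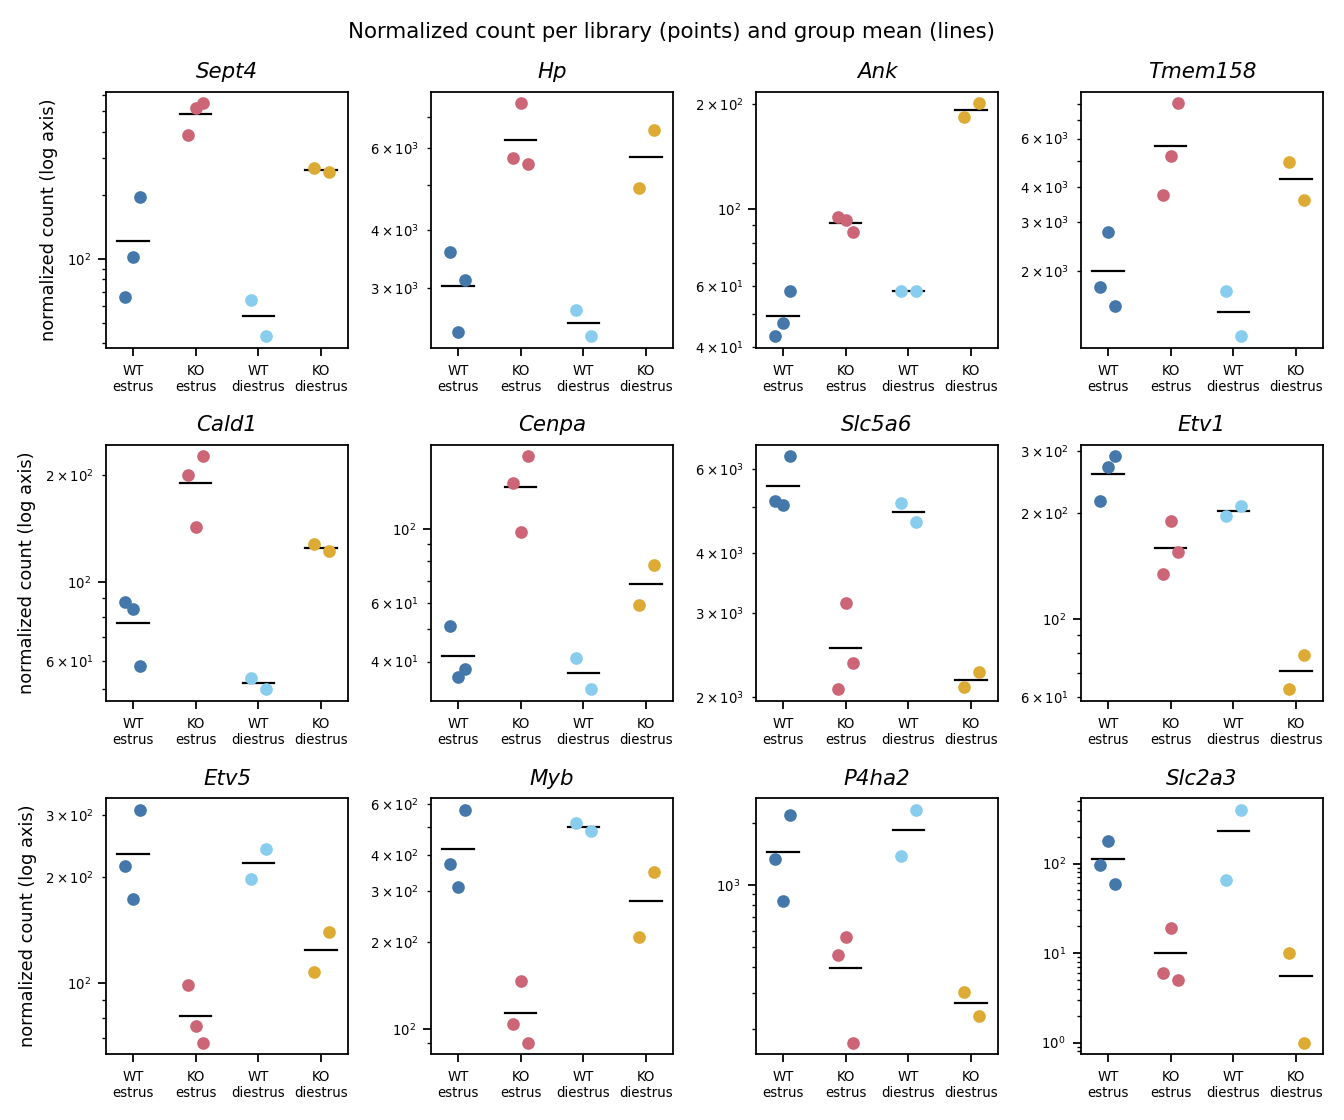
Normalized count on a log axis for 12 of the shared genes in each library (points) with the mean of each group (lines), for WT and KO at estrus and diestrus. The 6 genes from Sept4 to Cenpa are higher and the 6 from Slc5a6 to Slc2a3 lower in KO at both stages, and the KO libraries of Myb are closer to WT at diestrus than at estrus.

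Genes of the cytoskeleton and cell division made up a further group. Sept4, a septin GTPase (chromosome 11, 87568903 to 87590539, plus strand), had the largest averaged rise among the shared genes. It had 66, 102 and 197 counts in WT estrus, 387, 520 and 546 in KO estrus, 64 and 43 in WT diestrus, and 271 and 258 in KO diestrus. Every KO library exceeded every WT library, with an averaged log2 difference of 2.21 ± 0.26 (adjusted p = 0.00954). Cald1, the actin- and myosin-binding caldesmon, had 88, 84 and 58 counts in WT estrus against 200, 143 and 225 in KO estrus, and 54 and 50 in WT diestrus against 128 and 122 in KO diestrus (log2 1.27 ± 0.18, adjusted p = 0.0186). Amotl1, an angiomotin-like protein of cell junctions, rose by 1.24 ± 0.24 on the log2 scale. Caldesmon is also expressed by myoepithelial cells, and limma called 0 of 11 tested basal and myoepithelial markers (1 at an unadjusted p under 0.05). Acta2, the actin of smooth muscle and myoepithelium, ranged from 113 to 225 counts in KO estrus and from 138 to 407 in WT estrus, and had 270 and 147 counts in KO diestrus against 139 and 131 in WT diestrus. Krt5, a basal keratin, had 502, 149 and 47 counts in KO estrus against 54, 32 and 77 in WT estrus. At diestrus it had 54 and 34 in KO against 42 and 32 in WT. The basal keratin Krt14 ranged from 129 to 228 counts in KO estrus and from 191 to 903 in WT estrus. Krt17 ranged from 155 to 253 and from 201 to 893. Of the 11 tested basal markers 2 had an averaged log2 difference above 0. Their median was -0.30, and from -0.56 to 0.04 with 1 library left out. The 15 basal markers in the table summed to 715 to 1421 counts in KO estrus against 814 to 2292 in WT estrus, and to 580 to 1067 in KO diestrus against 704 to 1169 in WT diestrus. Their part in the result was not tested.

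Several other actin-binding genes fell. These were Pls1, the plastin of microvilli (-1.03 ± 0.20), Scin, a severing protein (-0.75 ± 0.12), Svil, supervillin (-0.75 ± 0.15), Vcl, vinculin (-0.61 ± 0.12), Baiap2, which links membranes to actin (-0.48 ± 0.10), and Anln, anillin of the contractile ring (-1.07 ± 0.18). Scin had 572, 442 and 414 counts in WT estrus against 298, 284 and 272 in KO estrus, and 656 and 641 in WT diestrus against 372 and 382 in KO diestrus. Every KO library of Scin lay below every WT library. Anln and Vcl, in contrast, fell less at diestrus than at estrus. Anln had log2 differences of -1.63 at estrus and -0.51 at diestrus. Vcl had -1.18 and -0.05, with KO diestrus counts of 3022 and 3066 just under the WT counts of 3208 and 3080. Its overlapping gene on the opposite strand, Ap3m1, had log2 differences of -0.81 and -0.08 at the same stages.

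Cenpa, the histone H3 variant of centromeres, rose while anillin fell. Cenpa (chromosome 5, 30666777 to 30674830, plus strand) had 51, 36 and 38 counts in WT estrus, 137, 98 and 165 in KO estrus, 41 and 33 in WT diestrus, and 59 and 78 in KO diestrus. KO lay above WT at each stage without overlap, and the averaged log2 difference was 1.25 ± 0.21 (adjusted p = 0.0336). Of 35 tested cell cycle genes Cenpa was the only one called (2.86%, against 0.25% of all genes called higher), and the list median was 0.33 at estrus and 0.00 at diestrus. Nek7, a kinase of mitosis and of the inflammasome, fell by 0.94 on the log2 scale. Gm28501, an antisense gene within Nek7, had a log2 difference of -1.10 ± 0.24 (adjusted p = 0.0731).

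Secreted and surface proteins of wound and immune responses went in both directions. Hp, haptoglobin, which binds free hemoglobin (chromosome 8, 109575128 to 109579172, minus strand), had 3584, 2412 and 3128 counts in WT estrus and 5721, 7493 and 5554 in KO estrus, and 2695 and 2365 in WT diestrus against 4922 and 6569 in KO diestrus. All KO libraries lay above all WT libraries, with log2 differences of 1.05 at estrus, 1.17 at diestrus and 1.11 ± 0.15 on average (adjusted p = 0.0131). Of 3 tested erythroid markers limma called 0, and 3 had an unadjusted p under 0.05 (median averaged log2 1.18). These markers summed to 139 to 357 counts in KO estrus against 53 to 421 in WT estrus. At diestrus they summed to 313 to 450 in KO against 58 to 132 in WT. The part of blood cells in the result was not tested. Ifitm3, which hinders entry of enveloped viruses, rose by 0.86 ± 0.14 on the log2 scale (adjusted p = 0.0299). Of 23 interferon-induced genes listed, which do not include Ifitm3, limma called 0 (3 at an unadjusted p under 0.05), and 0 were apart in the same direction at both stages. Selenop, the selenium carrier (0.85 ± 0.15), Cd302, a C-type lectin receptor (1.16 ± 0.22), and Cmtm3 (1.10 ± 0.22) were also higher. Il33, an alarmin cytokine stored in nuclei, fell, with 255, 188 and 418 counts in WT estrus, 124, 121 and 44 in KO estrus, 509 and 150 in WT diestrus, and 59 and 31 in KO diestrus (log2 -2.15 ± 0.40, adjusted p = 0.0457). Alox15, a lipoxygenase of polyunsaturated fatty acids, had 1244, 765 and 464 counts in WT estrus and 368, 442 and 459 in KO estrus. In diestrus Alox15 had 2367 and 1810 in WT and 536 and 493 in KO. The estrus groups of Alox15 came close, at 459 and 464, and its averaged log2 difference was -1.43 ± 0.22 (adjusted p = 0.0214). The 15 macrophage markers summed to 803 to 1251 counts in KO estrus against 378 to 840 in WT estrus, and to 534 to 543 in KO diestrus against 730 to 901 in WT diestrus. Among them Adgre1 did not exceed 5 counts in any library, while Csf1r had 187 to 278 and Cd74 had 32 to 436. Their part in the result was not tested.

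Hbegf, a membrane-anchored ligand of the EGF receptor, was the only called gene of 10 tested EGF family ligands and receptors (10% called higher, against 0.25% of all tested genes). It had 1607, 1653 and 1150 counts in WT estrus against 2720, 1755 and 2384 in KO estrus, and 1077 and 1168 in WT diestrus against 2127 and 2003 in KO diestrus. The lowest KO library, with 1755, was close to the highest WT library, with 1653, and the averaged log2 difference was 0.76 ± 0.14 (adjusted p = 0.0457). Areg, another ligand of that receptor induced by estrogen, had log2 differences of 0.06 at estrus and -0.97 at diestrus (averaged -0.46 ± 0.21, adjusted p = 0.338). Hpn, the cell surface protease hepsin (0.63 ± 0.10), and Tspan15, a tetraspanin partner of the sheddase ADAM10 (0.61 ± 0.12), rose as well. Flt1, a receptor of VEGF, fell (-1.99 ± 0.38, adjusted p = 0.0457), from 26, 20 and 31 counts in WT estrus to 5, 14 and 5 in KO estrus, and from 44 and 21 in WT diestrus to 5 and 6 in KO diestrus. Flt1 is also an endothelial marker. Of the other endothelial markers, Cdh5 and Kdr did not exceed 5 and 3 counts in any library. Pecam1 had 23, 40 and 41 counts in KO estrus against 25, 22 and 27 in WT estrus. At diestrus Pecam1 had 72 and 18 in KO against 76 and 42 in WT. The 11 endothelial markers, Flt1 included, summed to 1122 to 1711 counts in KO estrus against 1048 to 1726 in WT estrus and to 820 to 889 in KO diestrus against 1010 to 1258 in WT diestrus, mostly from Eng and Vwf. Their part in the result was not tested. In bulk samples fewer cells of a type and less RNA per cell cannot be told apart.

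P4ha2, a catalytic subunit of collagen prolyl hydroxylase (chromosome 11, 54100095 to 54131665, plus strand), had 1334, 839 and 2170 counts in WT estrus and 456, 559 and 172 in KO estrus, and 1384 and 2318 in WT diestrus against 302 and 231 in KO diestrus. Every KO library was below every WT library, and the averaged log2 difference was -2.34 ± 0.33 (adjusted p = 0.0172). The fibroblast markers summed to 106 to 122 counts in KO diestrus against 592 to 662 in WT diestrus, and to 116 to 3108 in KO estrus against 660 to 1623 in WT estrus. Nearly all of this sum was Dcn, which encodes decorin. Col1a1 and Col1a2, the chains of type I collagen, did not exceed 11 and 9 counts in any library. The part of these cells in the P4ha2 result was not tested.

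Enzymes of sulfur, sugar and lipid metabolism were also among the shared genes. Cdo1, cysteine dioxygenase of taurine synthesis, fell from 5639, 12591 and 10439 counts in WT estrus to 3806, 4387 and 4913 in KO estrus, and from 4111 and 5452 in WT diestrus to 2414 and 2433 in KO diestrus (log2 -1.01 ± 0.20, adjusted p = 0.0457). G6pdx, which feeds the pentose phosphate pathway, fell by 0.66 on the log2 scale. It was the only called gene of 30 in the NRF2 and glutathione list (3.33%, against 0.415% of all genes called lower), and its partner on the opposite strand, Ikbkg, had a log2 difference of -0.40 ± 0.12 (adjusted p = 0.172).

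Of the sphingolipid enzymes, Sptlc3, a subunit of serine palmitoyltransferase, fell (-0.92 ± 0.17), and Degs1, the dihydroceramide desaturase, rose (0.61 ± 0.11). Degs1 had 353, 415 and 440 counts in WT estrus against 447, 460 and 445 in KO estrus, and 286 and 311 in WT diestrus against 678 and 573 in KO diestrus. Its estrus groups came close, at 440 and 445, and its diestrus groups lay far apart. The phosphatidate phosphatase Lpin2 (-0.58 ± 0.11), the diacylglycerol kinase Dgki (-1.22 ± 0.23) and the insulin-degrading enzyme Ide (-1.04 ± 0.19) fell. A pseudogene, Rpl10-ps6, lies within Ide on the same strand and had an averaged log2 difference of 0.23 ± 0.17.

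The shared regulators of protein turnover, membrane traffic and stress named here were lower in KO. Trp53inp1, a p53 target that acts in autophagy and cell death, had 8503, 12906 and 15991 counts in WT estrus and 4236, 5222 and 3702 in KO estrus, and 8925 and 14036 in WT diestrus against 8062 and 7386 in KO diestrus. At diestrus the groups came close, at 8062 and 8925, and the averaged log2 difference was -1.01 ± 0.19 (adjusted p = 0.0457). Of 30 p53 targets Trp53inp1 was the only call (3.33%, against 0.415% of all genes called lower), and 5 were apart and lower at both stages (16.7%, against 2.96% of all genes): Trp53inp1 with Ccng1, Fas, Sesn1 and Phlda3. The last 4 had averaged log2 differences of -0.89 to -0.50 and were not called. The p53 targets Cdkn1a and Mdm2 had averaged log2 differences of 0.02 ± 0.22 and -0.40 ± 0.11. The ubiquitin ligases Rfwd3, Rffl and Rnf125, the mitophagy receptor Bnip3, the membrane traffic regulators Arfgap3, Cyth1 and Tbc1d1, and Prom2, a protein of membrane protrusions, fell by 0.57 (Rffl) to 0.98 (Prom2) on the log2 scale. Gm45507, antisense to Bnip3, had a log2 difference of -0.71 ± 0.15 (adjusted p = 0.0584).

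A cluster on chromosome 14 gave 6 of the 29 higher genes but only 2 signals. Plac9a, Plac9b and Gm9780, and Tmem254a, Tmem254b and Tmem254c, lie between 25887506 and 26207041 as repeated pairs, and the counts of each trio ran together over libraries with r of 0.999 to 1. Reads from such near-identical copies cannot be assigned with certainty, so each trio is counted as 1 signal. Plac9b had 382, 320 and 274 counts in WT estrus and 754, 493 and 396 in KO estrus, and 111 and 77 in WT diestrus against 416 and 637 in KO diestrus. KO was higher at each stage, by 0.71 at estrus and 2.46 at diestrus on the log2 scale (averaged 1.59 ± 0.20, adjusted p = 0.0125). Tmem254a had 4846, 4364 and 3821 counts in WT estrus, 5741, 5691 and 5417 in KO estrus, 2438 and 2119 in WT diestrus, and 4426 and 3921 in KO diestrus (log2 0.63 ± 0.11, adjusted p = 0.0342). The KO diestrus libraries of Tmem254a lay within the WT estrus range. With these trios and the Myb pair counted once each, the 73 shared genes were 68 signals, 25 higher and 43 lower.

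Tmem158, a membrane protein induced by RAS signalling in other cells, rose as well. It had 1750, 2767 and 1495 counts in WT estrus, 3742, 5173 and 8045 in KO estrus, 1692 and 1159 in WT diestrus, and 4961 and 3609 in KO diestrus. All KO libraries exceeded all WT libraries (log2 1.54 ± 0.23, adjusted p = 0.0206). Bex1 and Tceal7, related small proteins encoded on opposite strands of overlapping sequence on chromosome X, rose by 1.48 ± 0.25 and 1.75 ± 0.26, and their reads may not be separable. Neither lies within 10 Mb of Rps6ka3. Of 70 tested genes in that window limma called 0, and 10 had an unadjusted p under 0.05, against 2235 of all 15180 tested genes. Within it 3 were apart and higher (4.29%, against 2.42% of all genes) and 1 apart and lower (1.43%, against 2.96%) at both stages.

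The other shared genes, named only for completeness, were Fam69b, Gm43305 and Gm8730 among the higher and Ctsr (cathepsin R), Gm10693, Gm12888 and Gm21887 among the lower. Ctsr had 121, 64 and 203 counts in WT estrus against 19, 14 and 39 in KO estrus, and 66 and 31 in WT diestrus against 9 and 6 in KO diestrus (log2 -2.41 ± 0.38, adjusted p = 0.0262). Gm8730, a processed pseudogene, had the lowest adjusted p of the stage difference (0.0812): it had 1553, 1147 and 1051 counts in KO estrus against 150 to 246 in WT estrus, but 219 and 236 in KO diestrus against 187 and 188 in WT diestrus. Reads of a processed pseudogene can come from its parent gene. The 28 called genes outside the shared set included 10 apart at estrus and 19 apart at diestrus. Among them Dynlt1b was apart at both stages but in opposite directions (1.17 and -0.15). Sec24d, a vesicle coat protein, was one of those with an estrus difference (-1.29) and little at diestrus (-0.10). Nnt, the mitochondrial transhydrogenase, differed at diestrus alone: it had 530 and 617 counts in WT diestrus, 168 and 116 in KO diestrus, and 154 to 303 in the 6 estrus libraries. ENSMUSG00000113525, which has no position in the annotation used, had nearly the same counts as Nnt in each library. Whether it is a copy of Nnt was not checked. Nnt and the shared gene Ide are on a list of genes reported to vary between C57BL/6 substrains. Of its 6 tested genes these 2 were called lower (33.3%, against 0.415% of all genes). A further 1 was apart at both stages in opposite directions (16.7%, against 5.65% of all genes). The part of substrain in the result was not tested.

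Among the hormone-sensing and hormone-induced genes tested, Myb was the only call. Of 24 genes of hormone-sensing luminal identity Myb was called lower (4.17%, against 0.415% of all genes), and 4 were apart and lower at both stages (16.7%, against 2.96% of all genes): Myb, Wnt4, Stat5a and Krt19. Wnt4, the progesterone-induced ligand for the basal layer, had 2611, 3153 and 2593 counts in WT estrus, 2067, 2461 and 2202 in KO estrus, 2261 and 2583 in WT diestrus, and 1583 and 1302 in KO diestrus. Wnt4 did not overlap within a stage, with an averaged log2 difference of -0.53 ± 0.11 that missed the threshold (adjusted p = 0.0625). Stat5a, which carries the prolactin signal, had 3510, 3212 and 2909 counts in WT estrus against 1733, 2390 and 2323 in KO estrus, and 3967 and 4862 in WT diestrus against 2957 and 3110 in KO diestrus (-0.56 ± 0.12, adjusted p = 0.0726). Of 11 tested progesterone-induced genes 0 were called by limma, and 4 had an unadjusted p under 0.05. Apart and lower at both stages were 4 (36.4%, against 2.96% of all genes): Wnt4, Id4, Sgk1 and Stat5a. Wnt4 and Stat5a are also in the luminal identity list, so the lists are not separate. The median averaged log2 difference of the 11 genes was -0.43, with -0.15 at estrus and -0.53 at diestrus. It was -0.23 without WT diestrus 2, -0.25 without WT estrus 2, -0.27 without KO estrus 3 and also without either KO library of diestrus, and between -0.42 and -0.36 without any 1 of the other libraries. Of 19 estrogen-induced genes Myb was the only call (5.26%, against 0.415% of all genes called lower; list median -0.11). Esr1 and Pgr had averaged log2 differences of -0.30 ± 0.20 and -0.25 ± 0.14 (adjusted p = 0.483 and 0.431). Markers of the neighbouring luminal progenitors summed to 22950 to 37134 counts in KO estrus against 25954 to 31750 in WT estrus, and to 30806 to 34137 in KO diestrus against 24659 to 31998 in WT diestrus. Limma called 0 of the 12 tested (3 at an unadjusted p under 0.05). Wfdc18 and Lcn2 were apart and higher at both stages (16.7%, against 2.42% of all genes), with limma adjusted p of 0.176 and 0.184.

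**Figure D4:**
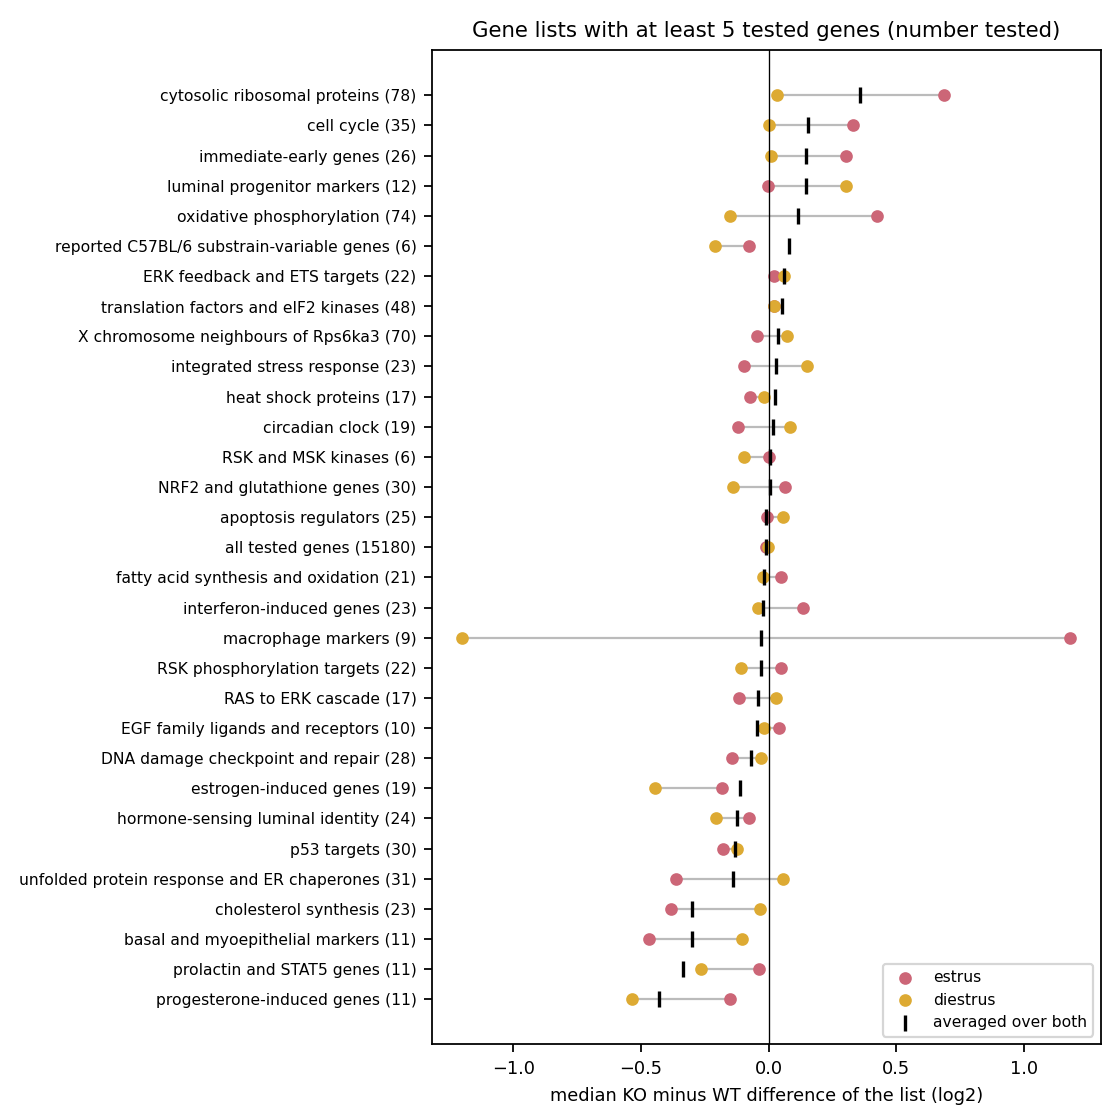
Median log2 difference between KO and WT at estrus (red), at diestrus (yellow) and averaged (black tick) for each gene list with at least 5 tested genes, the number tested in parentheses. The cytosolic ribosomal protein and oxidative phosphorylation lists are high at estrus, with medians of 0.68 and 0.42, and near or below 0 at diestrus, with 0.03 and -0.15.

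Lists that moved at estrus were mostly not shared. The 78 cytosolic ribosomal protein genes had a median log2 difference of 0.68 at estrus and 0.03 at diestrus. In the averaged difference limma called 0 of them, and 50 had an unadjusted p under 0.05, against 2235 of all 15180 tested genes. Of the 78 genes, 20 were apart and higher at both stages (25.6%, against 2.42% of all genes). Rpl13, a protein of the large subunit, had 11818, 9318 and 9432 counts in WT estrus and 21806, 15388 and 13534 in KO estrus, and 10433 and 10937 in WT diestrus against 11153 and 11771 in KO diestrus. Its groups did not overlap at diestrus but were close, and the averaged log2 difference was 0.41 ± 0.15 (adjusted p = 0.248). Transcript length moved with these medians: per doubling of transcript length, values changed by -0.12, -0.03 and -0.08 (log2) in KO estrus, by -0.03 to 0.03 in WT estrus, by 0.06 in both KO diestrus libraries and by 0.03 to 0.04 in WT diestrus. With the dependence on length and GC taken out, the averaged ribosomal median was 0.27, against 0.36 before. Of 74 oxidative phosphorylation genes 31 were apart in opposite directions (41.9%, against 5.65% of all genes), with medians of 0.42 at estrus and -0.15 at diestrus, and limma called 0 (5 at an unadjusted p under 0.05). Of 23 cholesterol synthesis genes limma called 0 and 8 had an unadjusted p under 0.05 (median -0.38 at estrus, -0.03 at diestrus). Of 31 unfolded protein response genes Sec24d was called lower (3.23%, against 0.415% of all genes). Of 48 translation factors and eIF2 kinases Eif2ak3, which encodes the stress kinase PERK, was called lower (2.08%), with log2 differences of -0.80 ± 0.16 on average, -1.25 at estrus and -0.35 at diestrus.

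The shared genes differed from the tested genes in some properties that the choice did not use directly. The higher genes had a median transcript length of 1861 bases and the lower genes of 3990, against 2927 over all tested genes. Their median GC content was 51.8% and 48.6%, against 50% over all. Their median counts of 387 and 832 were above the 255 of all tested genes, and a higher count makes a call easier. With the dependence of each library on length and GC content taken out, limma called 54 genes, 44 of them among the 73.

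Promoters of the shared genes were read to see whether sites of the factors downstream of ERK stood out. The window ran from 250 bases before to 50 bases after the RefSeq start (GRCm38.p6), and both strands were searched. The ETS motif CCGGAAGT was in 0 of the 29 promoters of 22 higher genes and 0 of the 50 promoters of 34 lower genes, against 7.89% of the 13071 promoters of all tested genes. The CRE motif TGACGTCA was in 0 promoters of the higher genes and in 1 of the lower genes (2%), against 3.01%. The AP-1 motif TGANTCA was in 3 promoters of the higher genes (10.3%: Cald1, Ifitm3 and Tspan15) and in 1 of the lower genes (2%: Cyth1), against 5.38%. The palindromic estrogen response element was in 0 promoters of shared genes and in 1 of all promoters. These are matches of letters in a short window, not sites of binding. The promoters counted are not all separate. Those of the Plac9a, Plac9b and Gm9780 trio and of the Tmem254 trio repeat nearly the same sequence. Some genes, such as Selenop, Tox2 and Zfp951, gave overlapping windows. The shares among shared genes thus rest on fewer separate sequences than the counts of promoters. The windows that held an AP-1 or CRE motif are shown for a pair of higher genes and 1 lower gene, 5′ to 3′ on the gene's strand, with the motif in capitals. The Ifitm3 window is chr7:141010695-141010994 (minus strand), that of the downstream Cald1 start is chr6:34709194-34709493 (plus strand), and that of Flt1, the 1 CRE match, is chr5:147725962-147726261 (minus strand).
Ifitm3: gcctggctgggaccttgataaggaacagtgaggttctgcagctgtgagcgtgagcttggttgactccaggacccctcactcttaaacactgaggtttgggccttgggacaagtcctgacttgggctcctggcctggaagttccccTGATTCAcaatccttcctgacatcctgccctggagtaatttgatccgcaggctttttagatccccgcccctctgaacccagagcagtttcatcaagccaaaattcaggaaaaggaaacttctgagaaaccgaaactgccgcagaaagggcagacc
Cald1: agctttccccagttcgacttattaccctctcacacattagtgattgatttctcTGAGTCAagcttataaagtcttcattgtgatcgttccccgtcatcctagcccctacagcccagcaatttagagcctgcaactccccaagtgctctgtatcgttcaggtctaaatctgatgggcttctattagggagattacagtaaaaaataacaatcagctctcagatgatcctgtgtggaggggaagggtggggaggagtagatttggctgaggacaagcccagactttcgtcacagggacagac
Flt1: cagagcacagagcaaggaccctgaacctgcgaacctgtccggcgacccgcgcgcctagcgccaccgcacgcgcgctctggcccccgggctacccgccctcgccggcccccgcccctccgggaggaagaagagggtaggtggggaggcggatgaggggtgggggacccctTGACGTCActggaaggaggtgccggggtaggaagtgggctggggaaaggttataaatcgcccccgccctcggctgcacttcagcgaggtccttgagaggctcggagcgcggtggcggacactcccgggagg

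The number of calls depended on the libraries in the fit. Without WT diestrus 2 or without KO diestrus 2, limma called 0 genes in the averaged difference (1238 and 1419 at an unadjusted p under 0.05, lowest adjusted p 0.0958 and 0.0900). Without WT diestrus 1 it called 19 genes and without KO diestrus 1 it called 15. Each of these fits leaves 1 library in a group, whose spread is borrowed from the others. Omission of an estrus library left 42 to 76 calls. Of the 73 shared genes 22 were called in at least 6 of the 10 fits with 1 library left out, and 6 in none. The 9 called in 8 of the 10 were Sept4, Ank, Hp, Gm8730, Plac9a, Plac9b, Gm9780, Slc5a6 and Slc2a3. Etv1 and Myb were called in 6, Etv5 and Slc41a3 in 5, Cenpa in 3, Atp7b in 2, and Il33, Hbegf, Cdo1 and Trp53inp1 in 1. The 6 called in none were Cd302, Tspan15, Degs1, Baiap2, Rnf125 and Bnip3. The balance of directions differed between scalings: 38 genes were called higher and 63 lower as deposited and 38 and 61 after trimmed mean scaling, against 29 and 22 after scaling to equal totals and 31 and 29 after quantile normalization.

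**Figure D5:**
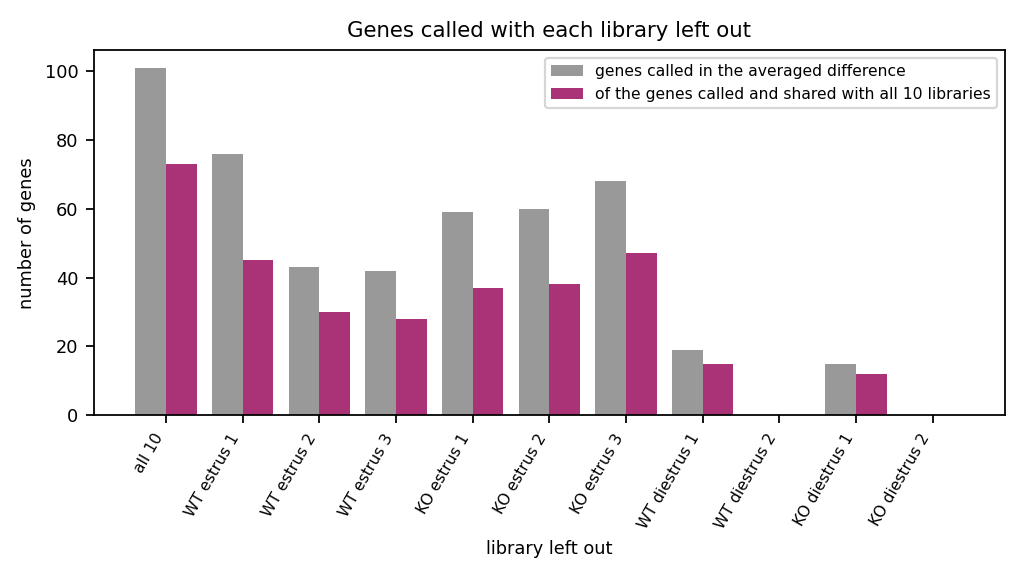
Number of genes called in the averaged difference with all 10 libraries and with each library left out (grey bars), and how many of the 73 shared genes were among them (purple bars). Without WT diestrus 2 or KO diestrus 2 no gene was called.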

How the data were processed

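STAR, HTSeq, DESeq2 and the build mm10 are named in the submitters' processing notes. Versions, settings and strand are not given in the sources used here. The authors deposited a score for each gene and library: read counts normalized per library by the authors and rounded to whole numbers, not raw counts, so no count test was run. Of 26312 genes, 26249 have a GENCODE M21 (GRCm38) symbol, and that annotation gave positions, lengths and GC content.

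Values were used as log2(value + 1). The 15180 genes with a mean of at least 10 were tested with limma 3.58.1 in R 4.3.3: 1 mean per group, a mean-variance trend, and two-sided contrasts with Benjamini-Hochberg adjustment over all tested genes (threshold 0.05). The fit was also run on simulated data, in which genes were drawn independently and libraries had no shifts of their own. That run does not show how stable the calls are in these libraries. Figures used Python 3.11.15 and matplotlib 3.10.9.

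The shared genes and the gene lists were chosen with earlier results of these data known. Genes were named by rule: Rps6ka3, its paralogs and the sort proteins, the 12 largest rises and falls and 5 highest levels in each direction among shared genes with a mean of at least 50, and up to 3 called genes per list. The paralogs and the sort proteins, though named by this rule, are given no values of their own here. Other genes were named after their values were seen. The counts include 1 shared gene that is not reported here. Alternatives were other pseudocounts, filters, scalings and models, and each library left out.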

Additional observations from a re-analysis of the deposited data

Results flagged for a closer look

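Some genes were apart between KO and WT at both stages but in opposite directions, which sets them outside the shared difference. They are the 5 with the largest gap among such genes with a mean of at least 50. The KO effect at estrus minus that at diestrus was -2.36 (log2) for Clca3a1, which fell short of the threshold in limma's test of the gap (adjusted p = 0.165). Clca3a1 had 159 to 216 counts in KO estrus against 234 to 536 in WT estrus, and 1286 and 645 in KO diestrus against 264 and 377 in WT diestrus. The gap was 2.18 for H2-Ab1 (adjusted p = 0.256), a class II histocompatibility gene, with 136 to 226 counts in KO estrus against 29 to 116 in WT estrus and 54 and 45 in KO diestrus against 104 and 72 in WT diestrus. It was 2.12 for Stmn1 (adjusted p = 0.165), which destabilizes microtubules, 2.01 for Rasd1 (0.156), a RAS-related GTPase, and 2.01 for Wdfy1 (0.165). None of the 5 gaps passed the threshold in limma, and 2150 of all tested genes had an unadjusted p under 0.05.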

How the results depend on the processing

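Of the 101 genes called in the averaged difference, 38 were higher and 63 lower, and of the 73 shared genes 29 and 44. The counts of calls with 1 library left out ran from 0 to 28 higher and 0 to 48 lower, and those also apart at both stages from 0 to 25 and from 0 to 37. Genes apart at both stages ran from 501 to 734 higher and from 562 to 862 lower, since fewer libraries overlap less. Called higher and lower were 7 and 3 genes without a filter (shared 7 and 2), 3 and 1 without a trend in the spread (3 and 0), 82 and 179 with library weights (55 and 105), 11 and 15 in the additive model (11 and 15), and 23 and 31 with the length and GC trend removed (18 and 27). Equal totals gave 22 lower (shared 17) and quantile normalization 29 (20). Without KO estrus 1 and 3 limma called 0 genes (1450 at an unadjusted p under 0.05, shared 0 and 0), while 774 and 790 were apart. With the replicate number as a block 41 were higher and 99 lower. The deviations of same-numbered WT and KO libraries had r of 0.03 to 0.19 at estrus and -0.04 for both diestrus pairs. In groups of 2 libraries the deviations mirror each other, so the diestrus pairs hold 1 value. WT estrus 3 was closer to KO estrus 2 than to KO estrus 3. Whether the numbers pair the libraries cannot be decided from so few values. The causes of these changes were not tested. Depth per library is not known from normalized values, and groups of 2 limit what diestrus can show.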
